A study of Mus musculus with 20 samples.

Results

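RNA was compared between Kmt2b knockout and control germline stem cells (GSCs), mouse spermatogonial stem cells kept in culture on a layer of fibroblast feeder cells. Knockout cells were Kmt2bF/F; Rosa26-CreERT2 GSCs given 4-OHT (4-hydroxytamoxifen) at 1 µM, which switches on the Cre recombinase made from the Rosa26 locus and cuts the floxed Kmt2b alleles (FC/FC). Control cells were GSCs of the same Kmt2bF/F; Rosa26-CreERT2 genotype given ethanol alone. Cells of both groups were harvested after 6 days. Each group had 2 libraries, made from duplicate cell lines per the series' design. The knockout was always paired with 4-OHT and switched-on Cre, so loss of Kmt2b, exposure to 4-OHT and Cre activity cannot be told apart. Of the 25067 genes in the RNA table, the 14100 with a mean log2 RPM (RPM, mapped reads of a gene scaled to a common library size) that was 0 or higher over the 4 libraries were compared. Just inside that limit were Ccdc135 (0.0025), Trp73 (0.0060) and Aldh1a3 (0.0061), and just outside it Pla2g10 (-0.0002), Fzd1 (-0.0011) and Scrn1 (-0.0011).

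Kmt2b encodes a histone methyltransferase that places methyl groups on lysine 4 of histone H3, the H3K4me3 mark found at active and poised promoters. Its CXXC domain binds unmethylated CG dinucleotides, which are dense in CpG islands. Promoters of developmental genes often carry H3K4me3 together with H3K27me3, the mark of Polycomb repression, and are then called bivalent. In the testis, spermatogonial stem cells either renew themselves, driven by GDNF and FGF signals, or differentiate under retinoic acid and later enter meiosis.

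The knockout libraries held 45771856 and 40029846 mapped reads and the control libraries 38458004 and 44372009, and between 67.7% and 72.7% of the reads lay in listed genes. A single read was worth 0.0218 to 0.026 RPM. The knockout pair was less alike than the control pair. The log2 values correlated at 0.99 between the knockout libraries and at 0.997 between the control libraries, across genes, which are not independent replicates. At least 2-fold differences were seen for 135 genes (0.957%) between the knockout libraries, 105 of them higher in replicate 2, and for 10 genes (0.0709%) between the control libraries. Germ cell markers summed to 2641 and 2953 RPM in the knockout libraries and 2766 and 2683 RPM in control, and all 15 passed the level filter. Ddx4, a germ cell RNA helicase, had 355.8 and 434.4 RPM in the knockout libraries, against 417.9 and 400.3 RPM in control. Of 17 Sertoli and Leydig cell markers 7 passed the level filter and 0 were called, and their summed level was 27 and 32 RPM in knockout libraries and 26 and 25 RPM in control. The steroid enzyme genes Cyp17a1, Hsd3b1 and Hsd3b6 had no read in any library. Of 17 blood and macrophage markers 3 were tested and 0 called, their summed level was 9 and 8 RPM in knockout and 7 and 8 RPM in control, and the haemoglobin gene Hbb-b1 had no read. A count of 0 allows a level of up to 0.0655 to 0.078 RPM in these libraries, by counting error only. Feeder fibroblast markers summed to 776 and 961 RPM in the knockout libraries, against 697 and 741 RPM in control.

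Kmt2b itself is listed under its older name Wbp7 (mm10 chromosome 7, 30568858 to 30588726, minus strand). It had 131.5 and 184.6 RPM in the knockout libraries, against 142.1 and 150.0 RPM in control. The groups overlapped, and the log2 change was 0.09 (SE 0.16; limma adjusted p = 0.798). Leaving out knockout replicate 1 gave 0.34, and leaving out knockout replicate 2 gave -0.15. A total over the whole gene can stay level when only some exons are cut out, so it is no check of the deletion.

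Most changes were increases. Limma called 425 of 14100 genes higher (3.01%) and 44 lower (0.312%) in the knockout at an adjusted p under 0.05, which is 469 in all (3.33%). At an unadjusted p under 0.05, 2326 genes were higher and 508 lower. The changes were moderate. The median log2 change was 0.87 among the increases, a size of 1.83-fold, and -0.85 among the decreases, a size of 1.8-fold, and 155 increases and 13 decreases were at least 2-fold. The 2 knockout values lay on one side of the 2 control values for all 469 called genes. They also did so for 36.2% of all tested genes on the higher side and for 16.0% on the lower side.

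The share of genes called higher varied with read level. It was 2.62% (34 of 1296) between a mean log2 RPM of 0 and 1, 6.64% between 1 and 2, 7.03% (111 of 1578) between 2 and 3, 4.96% between 3 and 4, and 0.397% (12 of 3023) at 6 and above. The median log2 change of all genes was 0.24 for genes with a mean log2 RPM between 0 and 1 and -0.04 for those at 6 and above, with 0.06 over all 14100 genes. Compared with the mean of the control libraries, the median gene stood at 0.02 (log2) in knockout replicate 1 and at 0.13 in knockout replicate 2. The balance of increases and decreases moved with the scaling. Increases made up 90.6% of calls, but 70.0% when each library was centred on its median (266 higher and 114 lower), 76.5% with median-of-ratios size factors (299 and 92) and 71.4% with quantile normalization (50 and 20). Scaled to the ribosomal protein genes, 3 genes were higher and 0 lower (limma; 1878 had an unadjusted p under 0.05). Leaving out control replicate 1 gave 227 higher and 28 lower. A fit without either knockout library took its spread from the control pair alone and called 5257 higher and 1442 lower without replicate 1, and 2953 and 3095 without replicate 2.

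**Figure D1:**
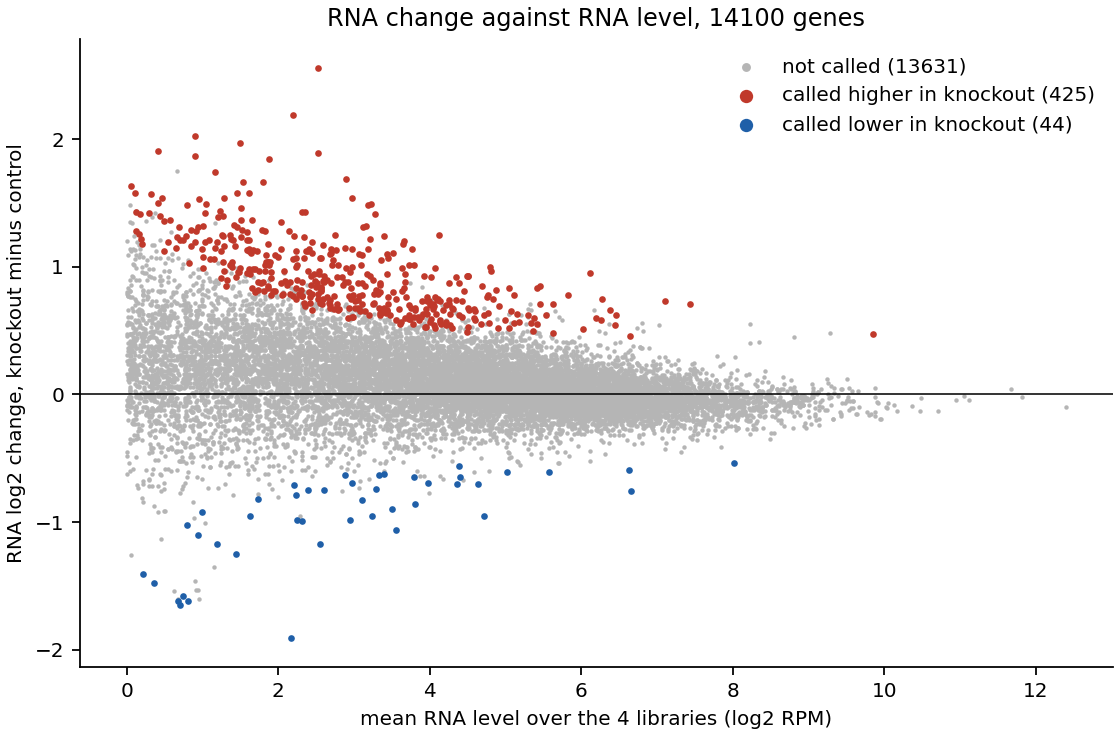
RNA log2 change (knockout minus control, vertical axis) against the mean RNA level over the 4 libraries (log2 RPM, horizontal axis) for each of 14100 genes. Red points are the 425 genes called higher in the knockout, blue points the 44 called lower and grey points the rest. The cloud sits above 0 at low levels and close to 0 at high levels.

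The largest decreases included a central gene of germ cell differentiation. Among genes whose mean log2 RPM was 3 or more, the 14 largest decreases ran between log2 changes of -1.06 and -0.63. Stra8, which retinoic acid induces and which opens meiosis, had 75.9 and 78.9 RPM in the knockout libraries, against 141.2 and 121.9 RPM in control. Its log2 change was -0.76 (SE 0.11; limma adjusted p = 0.023), and the adjusted p was 0.185 without control replicate 1. Both knockout libraries were low and close together.

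The X-linked homeobox gene Esx1, expressed in testis and placenta, had 18 and 19.8 RPM in the knockout libraries and 35.2 and 37.5 RPM in control, a log2 change of -0.95 (SE 0.11). Bex2, of the brain-expressed X-linked family, had 8.24 and 8.27 RPM in knockout and 15.9 and 15.1 RPM in control (log2 change -0.90, SE 0.11). Its relative Bex3, listed as Ngfrap1, had 17.5 and 16.3 RPM in knockout and 27.5 and 25.4 RPM in control (log2 change -0.65, SE 0.11). Nlrp9c, a member of the NLR family, had the lowest log2 change of the 14, -1.06 (SE 0.20), with 6.55 and 10 RPM in knockout and 16 and 17.9 RPM in control. The mouse has close copies of Nlrp9c, and reads shared with them cannot be told apart, so that value is uncertain. Jph1, a junctophilin that ties cell surface and internal membranes together in muscle, had 6.53 and 7.04 RPM in knockout and 12.7 and 13.5 RPM in control (log2 change -0.95, SE 0.12). These 5 genes had limma adjusted p values between 0.0204 and 0.0421.

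The other 8 included Plcl2 (a phospholipase C relative without catalytic activity, log2 change -0.86), Nrip3 (-0.83), the ESCRT-III gene Chmp2b (-0.74) and the splicing regulator gene Khdrbs3 (-0.70). The rest were Larp1b.1, a second entry for the RNA-binding protein gene Larp1b (-0.70), Adam23 (-0.69), the transmembrane protein gene Dcbld2 (-0.65) and the glutaminase gene Gls2 (-0.63). Larp1b stands here for that entry alone, and the gene's other entry is not described. Without control replicate 1, 6 of the 14 were still called. Stra8, Chmp2b, Khdrbs3, Larp1b, Adam23, Dcbld2, Bex3 and Gls2 were not, with limma adjusted p between 0.0973 and 0.258. Without control replicate 2, 8 were still called, and Nrip3, Khdrbs3, Adam23, Dcbld2, Bex3 and Gls2 were not (limma adjusted p between 0.073 and 0.275). Log2 changes moved by less than 1.5 times in all 14 when any one library was left out.

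The 14 largest increases among genes whose mean log2 RPM was 3 or more held genes of many kinds, 3 of them for DNA-binding transcription factors. Onecut2, a homeodomain transcription factor gene of liver and neural development, had 14.5 and 16 RPM in the knockout libraries, against 5.2 and 5.72 RPM in control, a log2 change of 1.48 (SE 0.13). Nr2e1, an orphan nuclear receptor gene of neural stem cells, had 13.8 and 18.1 RPM in knockout and 5.82 and 6.08 RPM in control (log2 change 1.41, SE 0.15). The AP-1 gene Junb had 12.5 and 14.9 RPM in knockout and 4.94 and 6.15 RPM in control (log2 change 1.31, SE 0.16). In each of these the lower knockout value was more than 2-fold above the higher control value.

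Smarca2, the ATPase of SWI/SNF chromatin remodelling complexes also known as BRM, had 14.2 and 18.2 RPM in the knockout libraries and 7.05 and 6.56 RPM in control (log2 change 1.24, SE 0.15). Sphk1, which makes the lipid signal sphingosine 1-phosphate, had 14.6 and 13.7 RPM in knockout and 5.69 and 5.61 RPM in control (log2 change 1.32, SE 0.12). The imprinted growth factor gene Igf2 had 12.9 and 15.4 RPM in knockout and 7.15 and 5.16 RPM in control (log2 change 1.22, SE 0.18). The control pair was wider for Igf2 than for Sphk1 or Smarca2, but the groups did not overlap. The remaining 8, with log2 changes of up to 1.49, were Erich3 (listed as 4922501L14Rik, 1.49), the inositol phosphatase gene Synj2 (1.25), Tmc6 (1.20), Arhgap33 (1.18), the unnamed locus AC152451.1 (1.14), the sodium channel gene Scn10a (1.14), Rusc1 (1.11) and the antigen peptide transporter gene Tap2, which had 11.4 and 13.1 RPM in knockout and 5.56 and 5.81 RPM in control. Limma adjusted p for these 14 lay between 0.0141 and 0.0263. Their log2 changes moved by less than 1.5 times when any one library was left out. Some genes below that level had larger changes. Barhl2, a homeobox gene of the nervous system named here after its values were seen, had the largest log2 change of all tested genes, 2.56 (SE 0.20), with 13.9 and 14.1 RPM in knockout and 2.89 and 1.96 RPM in control.

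**Figure D2:**
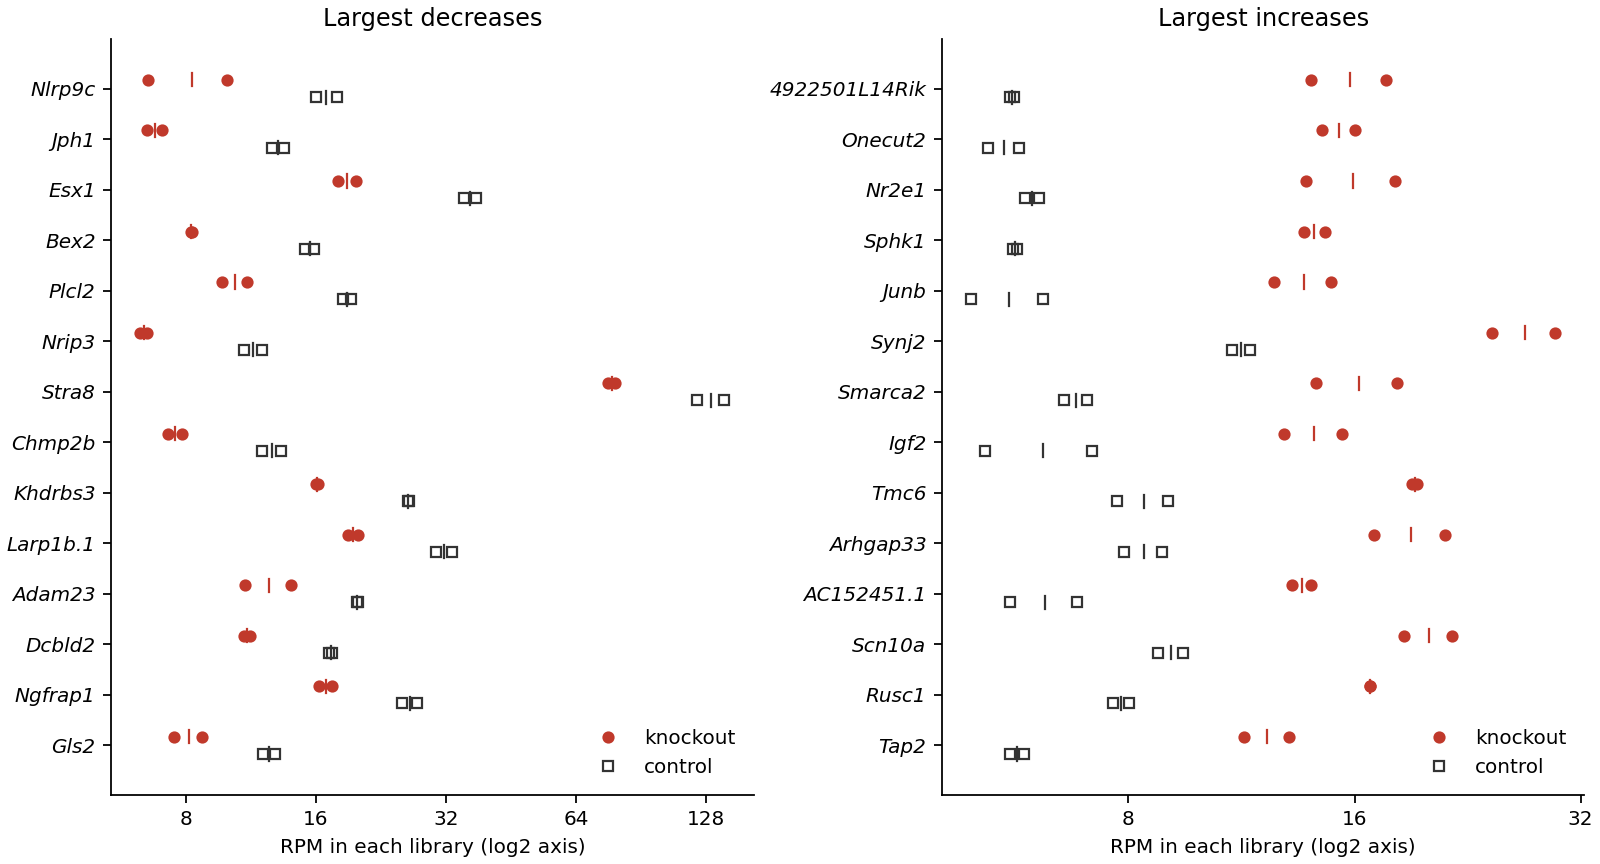
RPM in each library (horizontal log2 axis) of the 14 largest decreases (left) and the 14 largest increases (right) among genes whose mean log2 RPM was 3 or more. Filled red circles are the 2 knockout libraries, open squares the 2 control libraries, and short vertical lines the group means. Groups do not overlap for any of the 28 genes.

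Many embryonic transcription factor genes were higher in the knockout. Of 123 listed genes 41 passed the level filter, and 16 of these 41 were called higher (39.0%) and 0 lower, with a median log2 change of 0.60. The log2 change was above 0 in 35 of the 41, and 4 had both knockout values below both control values. Median centring gave 11 members called higher and 1 lower, and size factors gave 13 and 1. The background was 3.01% higher calls and a median of 0.06 over all genes, and 5.57% (238 of 4274) among genes below a mean log2 RPM of 3, where 29 of the 41 lay and 12 of the 16 calls. The neural tube factor gene Zic1 had 10.7 and 8.77 RPM in the knockout libraries, against 1.98 and 2.3 RPM in control, a log2 change of 2.19 (SE 0.17; limma adjusted p = 0.0141). Its neighbour Zic4 had 2.32 and 2.92 RPM in knockout and 0.494 and 0.969 RPM in control (log2 change 1.91, SE 0.35). Zic1 and Zic4 overlap on opposite strands. The library kit marked strand, but the strand setting of the counts is not given in the sources used here, so shared reads cannot be told apart. The same holds for Dcbld2, Gls2, Erich3, Synj2, Smarca2, Igf2, Tmc6, Tap2, Gata3, Adora1, Gfi1, Hoxb6, Chrd, Gfra1, Psmb8, Efna3, Tbx3, Tcl1, Neurog3 and Phf19, each of which overlaps a gene on the other strand.

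Foxd3, a forkhead gene of the neural crest, had 1.94 and 1.8 RPM in knockout and 0.598 and 0.654 RPM in control (log2 change 1.58, SE 0.24). Foxa2, a forkhead gene of endoderm and floor plate, had 4.09 and 4.27 RPM in knockout and 1.87 and 1.1 RPM in control (log2 change 1.54, SE 0.27). Other called members, named after their values were seen, included Gata3, Six2, Meis2, Irx2, Lhx2, Tfap2a, Lmx1a, Twist1, Dlx3, Tbx3 and Gata2, which had log2 changes between 0.68 and 1.46. They mark many tissues, among them neural (Lhx2, Lmx1a), kidney (Six2) and mesenchymal ones (Twist1). Of the 16, 9 were still called without control replicate 1 and 13 without control replicate 2, while quantile normalization left 1 call in the list. The list's median was positive under all alternatives, between 0.45 and 0.66.

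For embryonic signalling ligands and their antagonists 23 genes were tested, with a median log2 change of 0.48. Of these, 5 were called higher (21.7%, against 3.01% of all genes) and 0 lower. Among the 18 not called were Wnt3 (0.08), Bmp7 (0.05) and Jag2 (0.01). The list held 2 calls with median centring, 1 with quantile normalization and 0 with ribosomal scaling. Sfrp2, a secreted Wnt antagonist, had 30 and 32.1 RPM in knockout and 15.7 and 16.9 RPM in control (log2 change 0.93, SE 0.11). Fst, the activin antagonist follistatin, had 9.37 and 9.57 RPM in knockout and 4.34 and 4.8 RPM in control (log2 change 1.05, SE 0.13). The Notch ligand gene Dll1 (1.06), the BMP antagonist gene chordin (Chrd, 0.83) and the growth factor gene Pdgfa (0.73) completed the calls. So 2 of the 5 encode ligands and 3 antagonists. Without control replicate 2, Dll1, Chrd and Pdgfa were not called (limma adjusted p between 0.0713 and 0.128), and without control replicate 1, Chrd and Pdgfa were not (between 0.0567 and 0.169). Among 13 Hox genes tested, Hoxb6 (0.75) and Hoxb9 (0.78), both of the Hoxb cluster, were called higher (15.4%), and the median was 0.49. Hoxb6 kept its call without control replicate 1 and neither did without control replicate 2 (limma adjusted p = 0.114 and 0.193).

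A few feeder fibroblast genes were called higher as well. Of 35 markers 32 were tested, 3 were called higher (9.38%) and 0 lower, and the median log2 change was 0.26. All tested genes had 3.01% called higher and a median of 0.06. The collagen gene Col1a1 had 202.3 and 244.6 RPM in the knockout libraries, against 130.9 and 141.5 RPM in control (log2 change 0.71, SE 0.12). Col6a3 (0.99) and the growth factor receptor gene Pdgfra (0.73) were the other calls, while Fn1, the fibronectin gene, had 137.9 and 198.8 RPM in knockout and 177.5 and 183.7 RPM in control. Of the 3, only Col6a3 was still called without either control library (limma adjusted p for the other 2 between 0.0654 and 0.204). The part of feeder RNA in the increases was not tested. In these bulk libraries a different number of cells of a type and a different amount of RNA per cell cannot be told apart.

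A few genes of stem cell self-renewal were called higher. Of 27 self-renewal factors tested, 5 were called higher (18.5%, against 3.01% of all genes) and 0 lower, with a median log2 change of 0.37. Gfra1, the GDNF co-receptor gene that marks the most primitive spermatogonia, had 49.1 and 48.7 RPM in knockout and 31.4 and 32.3 RPM in control (log2 change 0.62, SE 0.09; limma adjusted p = 0.0265). Ret, which encodes the GDNF receptor tyrosine kinase and was named after its values were seen, had 98.9 and 119.6 RPM in knockout and 68.1 and 73.7 RPM in control (log2 change 0.62, SE 0.12). Nanos2, an RNA-binding protein gene that keeps male germ cells undifferentiated, had 7.03 and 7.84 RPM in knockout and 3.72 and 4.08 RPM in control (log2 change 0.93, SE 0.14).

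Cxcr4, the receptor gene for the niche chemokine CXCL12, rose by a log2 change of 1.21 (SE 0.20). The transcription factor gene Egr2 had 15.1 and 16.6 RPM in knockout and 6.81 and 8.02 RPM in control (SE of the log2 change 0.13). Gfra1 and Ret were not called without control replicate 1 (limma adjusted p = 0.262 and 0.366) nor without control replicate 2 (0.157 and 0.131). The other 3 were.

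Some feedback genes that ERK signalling induces were called higher and others were not. In a list of 20 tested FGF and GDNF signalling genes, which shares Gfra1 and Ret with the self-renewal list, 6 were called higher and 0 lower, with a median of 0.45. Spry4, a Sprouty inhibitor of the pathway, had 5.11 and 7.44 RPM in knockout and 1.56 and 2.46 RPM in control (log2 change 1.66, SE 0.27). The ERK phosphatase gene Dusp6 had 17.5 and 19.9 RPM in knockout and 7.9 and 10.9 RPM in control (log2 change 1.01, SE 0.17). Spry2 had 8.5 and 8.39 RPM in knockout and 4.65 and 4.24 RPM in control (log2 change 0.93, SE 0.13), and the immediate early gene Fos 44.3 and 43.3 RPM in knockout and 26.1 and 23.2 RPM in control (log2 change 0.83, SE 0.11). Fos was not called without control replicate 2 (limma adjusted p = 0.0608). With any one library left out, the log2 change lay between 1.33 and 1.98 for Spry4, 0.78 and 1.24 for Dusp6 and 0.86 and 1.00 for Spry2. The feedback inhibitor genes Spry1 (log2 change -0.10), Spred1 (0.02) and Spred2 (0.08) and the immediate early gene Egr1 (0.20) were not called. Quantile normalization left 0 calls in this list.

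Differentiation genes moved both ways. Among 22 progenitor and differentiation factors 2 were called higher and 2 lower (9.09% each, against 3.01% and 0.312% of all genes). The median of the list was -0.07, and 0.01 without knockout replicate 1. Neurog3, a transcription factor gene of committed progenitors, had 44.5 and 45.7 RPM in the knockout libraries, against 28.6 and 24.2 RPM in control (log2 change 0.78, SE 0.11). Upp1, a uridine phosphorylase gene of the same list, rose by a log2 change of 0.56. Stra8 and Crabp1 were the decreases, and Stra8 lost its call without control replicate 1 (0.185). Neurog3 was not called without control replicate 2 (limma adjusted p = 0.132), and Upp1 and Crabp1 were not called with either control library left out (between 0.169 and 0.516).

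The retinoic acid list held 3 decreases and 1 increase among 18 tested genes. Of all tested genes 0.312% were called lower and 3.01% higher. Crabp1, a gene for a cellular retinoic acid binding protein, had 83 and 78.5 RPM in knockout and 121.6 and 121.5 RPM in control (log2 change -0.59, SE 0.09; limma adjusted p = 0.0276). Rbp4, the gene for the retinol carrier, had 4.22 and 3.92 RPM in knockout and 7.28 and 6.47 RPM in control (log2 change -0.75, SE 0.14). Crabp2, the other binding protein gene, ran opposite, with 4.63 and 3.97 RPM in knockout and 2.47 and 2.03 RPM in control (log2 change 0.94, SE 0.18). Crabp1 and Rbp4 were not called without control replicate 1 (limma adjusted p up to 0.304) nor without control replicate 2 (up to 0.252), and Crabp2 was not without control replicate 2. Among 44 genes of meiotic prophase, Stra8 was the single call, with 6 called lower under median centring and 5 with size factors, and 0 of 14 tested spermatid genes were called.

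Of 22 pluripotency genes tested, 4 were called higher (18.2%, against 3.01% of all genes) and 0 lower, with a median log2 change of 0.37. The calls were 4 higher and 1 lower with median centring and 0 with quantile normalization. The Kruppel-like factor gene Klf2 had 8.41 and 7.14 RPM in knockout and 3.22 and 3.38 RPM in control (log2 change 1.23, SE 0.15). Tcl1, an AKT co-activator gene, had 29.2 and 26.8 RPM in knockout and 14.4 and 15.2 RPM in control (log2 change 0.92, SE 0.11). The nuclear receptor gene Nr5a2 (0.80) and the T-box gene Tbx3 (0.74) were the other calls. Neither was called without control replicate 1 (limma adjusted p = 0.121 for Nr5a2 and 0.101 for Tbx3). Among germ cell markers, Gfra1 and Nanos2 were called of 15, and the pluripotency factor gene Pou5f1 had 54.3 and 55.6 RPM in knockout and 54.8 and 51.5 RPM in control.

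The list of interferon response and antigen presentation genes had 31 tested members and a median of 0.42. Of these, 8 were called higher (25.8%, against 3.01% of all genes) and 0 lower. The class I presentation genes H2-K1, H2-D1 and B2m were not called, with log2 changes of -0.25, -0.11 and 0.04. Ifih1, the gene for the double-stranded RNA sensor MDA5, had 8.37 and 8.67 RPM in knockout and 3.9 and 4.19 RPM in control (log2 change 1.07, SE 0.13; limma adjusted p = 0.0204). The ubiquitin-like protein gene Isg15 had 6.03 and 4.5 RPM in knockout and 2.39 and 2.5 RPM in control (log2 change 1.09, SE 0.19). Xaf1, a gene for a cell death factor, rose by 1.37 and the immunoproteasome gene Psmb8 by 1.11. The other 4, named after their values were seen, were Tap1 (0.83), Gbp3 (0.69), the nucleic acid sensor gene Zbp1 (0.67) and Gbp2 (0.60). Gbp2, Gbp3 and Zbp1 were not called without control replicate 1 or without control replicate 2, and Tap1 was not without control replicate 2 (limma adjusted p between 0.0637 and 0.268). Quantile normalization left 0 calls here too, and 7 genes were called with median centring.

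Among p53 targets 4 of 35 were called higher (11.4%, against 3.01% of all genes) and 0 lower, with a median of 0.13. They were the BH3-only cell death genes Bbc3 (1.21) and Pmaip1 (0.52), the stress gene Ddit4 (0.66) and the cell cycle inhibitor gene Cdkn1a (0.65). Cdkn1a had 13.9 and 13 RPM in the knockout libraries, against 8.11 and 9.1 RPM in control. None of the 4 was called without control replicate 1 (limma adjusted p between 0.0613 and 0.395), and Bbc3 alone was without control replicate 2.

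Metabolic and other single calls went both ways. In glycolysis, aldolase A (Aldoa) had 213.8 and 212.8 RPM in knockout and 284.5 and 340.2 RPM in control, a log2 change of -0.54 (SE 0.11; limma adjusted p = 0.0496, and 0.684 without control replicate 2). The lactate dehydrogenase gene Ldhb (0.93) and Pfkfb4 (0.85) were called higher among the same 25 genes, whose median was -0.09, and neither Aldoa nor Pfkfb4 was called without control replicate 1 (limma adjusted p = 0.176 and 0.278). Of 33 imprinted genes 2 were called higher, Igf2 and its neighbour H19, a long non-coding RNA gene, with 34 and 39.8 RPM in knockout and 20.5 and 23.4 RPM in control (log2 change 0.75, SE 0.12; limma adjusted p = 0.161 without control replicate 1). In 50 axon guidance genes, Epha2 (0.81), Sema6c (0.70) and Efna3 (0.62) were called higher, and none of them without control replicate 1 (limma adjusted p between 0.0907 and 0.221). Single increases were Spocd1 (0.76) of the piRNA pathway, with 33 tested, the BMP target gene Id3 (0.82) among 25 TGF-beta genes, Dll1 among 21 Notch genes and the transcription factor gene Myb (1.39) among 10 oestrogen response genes. Without control replicate 1, Spocd1 and Id3 were not called (limma adjusted p = 0.0847 and 0.144). Over all tested genes 3.01% were called higher, and 5.57% of those below a mean log2 RPM of 3. The piRNA, TGF-beta, Notch, axon guidance and imprinted lists had between 3.03% and 6.06% called higher, so they stood close to this background. The imprinted list does not hold Dio3, an imprinted gene called higher with a log2 change of 2.02. The shares were larger for glycolysis (2 of 25) and oestrogen response (1 of 10), which rest on few genes. A difference of any of these lists from the background was not tested.

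Large housekeeping lists had 0 calls by limma. They were 78 cytosolic ribosomal protein genes (median log2 change -0.02), 68 oxidative phosphorylation genes (-0.05), 41 cell cycle and replication genes (-0.16), 31 cholesterol and fatty acid genes (-0.01) and 28 genes of the amino acid and unfolded protein responses (0.05). Chromatin lists had 0 calls too, with medians of 0.02 over 31 Polycomb genes, -0.06 over 19 genes of H3K4 methyltransferase complexes and 0.01 over 11 demethylase genes. Apart from the cell cycle list (-0.26 to -0.06), the sign of each of these medians turned under at least 1 scaling or omitted library. In the cell cycle list 20 of 41 genes had both knockout values below both control values, as 16.0% of all tested genes had. Both lay above in 5 of the 41, and in 36.2% of all tested genes. The replication clamp gene Pcna had 86.1 and 81.8 RPM in knockout and 106.6 and 103.5 RPM in control (log2 change -0.32, limma adjusted p = 0.114). Setd1b, the gene of a sister methyltransferase, had 6.6 and 12.4 RPM in knockout and 6.34 and 6.31 RPM in control, so its log2 change of 0.51 rested on knockout replicate 2. Phf19, of Polycomb complex 2, had 1.57 and 1.8 RPM in knockout and 0.78 and 0.744 RPM in control (log2 change 1.14, limma adjusted p = 0.0525). A list of 23 Rhox and X-linked germline genes had 0 calls and a median of 0.09. Over the 12 lists without a call, the 2 somatic cell lists and the spermatid list included, 35 of 354 members had an unadjusted p under 0.05, 11 of them in the cell cycle list and 0 among ribosomal proteins, and limma voom called 1, in the Polycomb list.

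**Figure D3:**
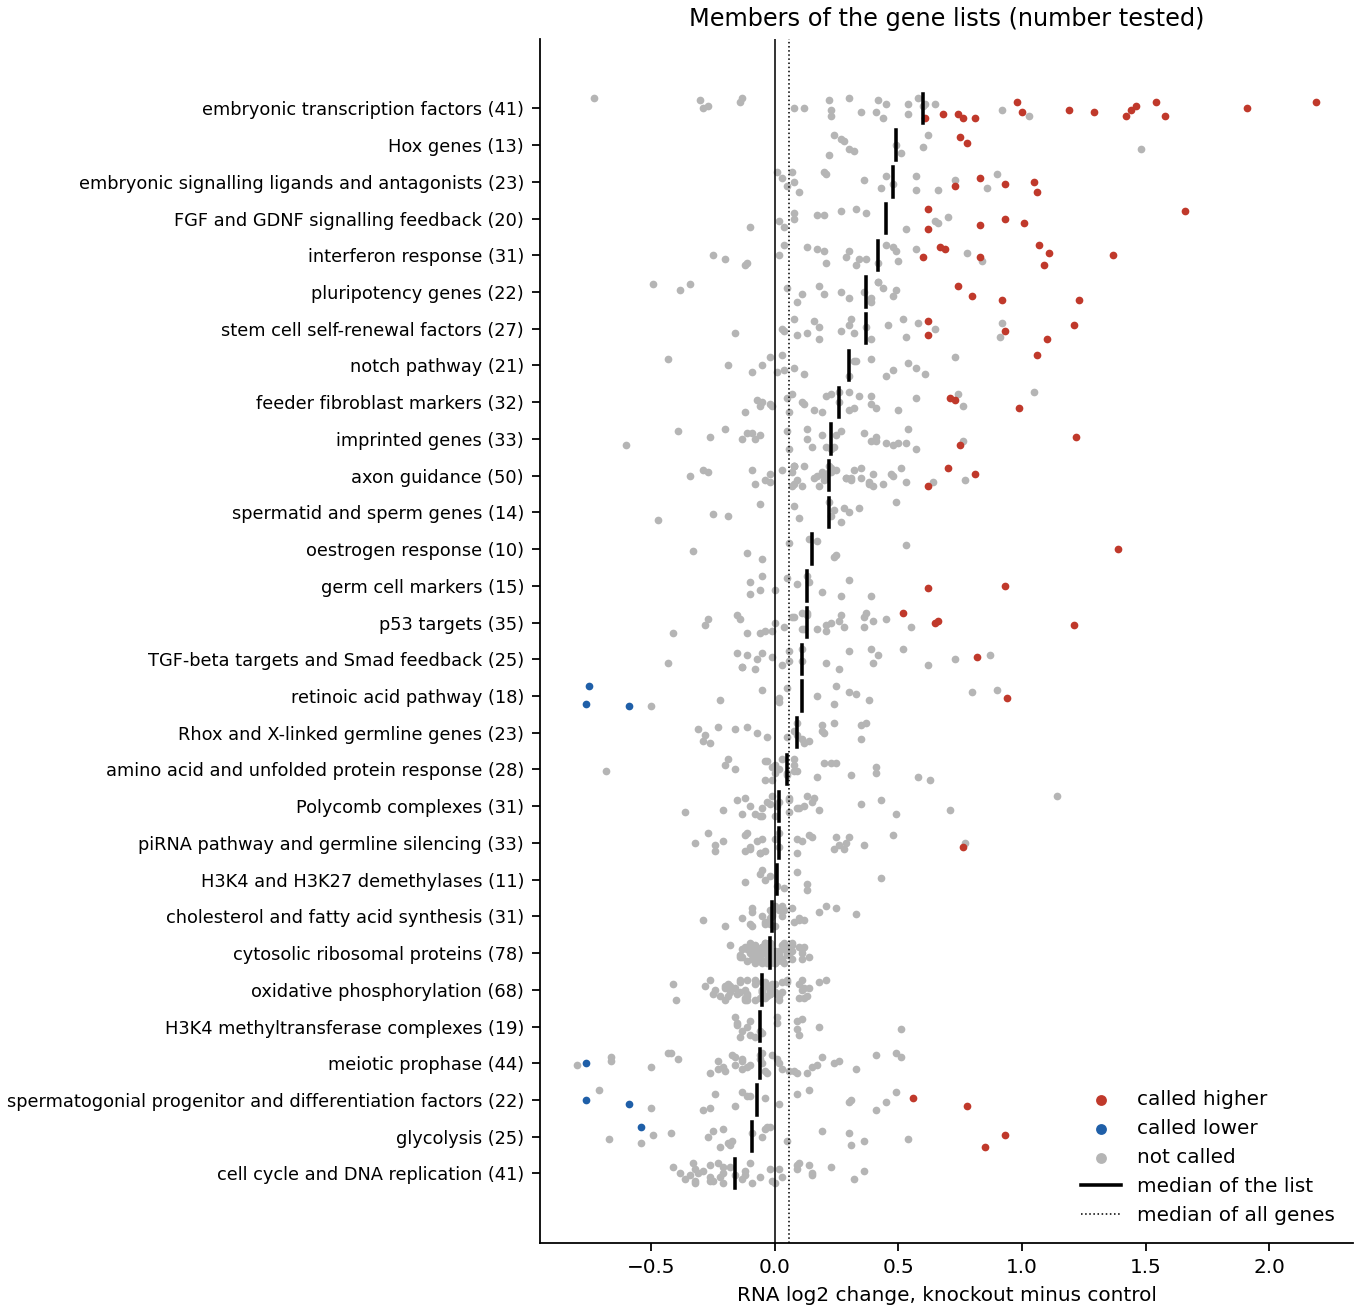
RNA log2 change (knockout minus control) of every tested member of the 30 gene lists with at least 10 tested members, ordered by their median from the top. Red points were called higher, blue points lower and grey points neither, black bars are list medians and the dotted line is the median of all 14100 genes (0.06). Embryonic transcription factors (0.60) stand at the top and cell cycle genes (-0.16) at the bottom.

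H3K4me3 was lower at genes of both directions of RNA change. The mark is given as log2 RPM in 1 window per gene, whose position the authors' table does not state, and it was not divided by input. Over its own table limma called H3K4me3 lower at 1529 of 15464 gene windows (9.89%) and higher at 8 (0.0517%), with a median log2 change of -0.25 over all windows. With each library centred on its median, 1348 were lower and 481 higher. A called decrease of H3K4me3 is termed a loss of the mark below, though the mark need not be gone. Among the 12069 genes tested in both assays, 5.18% lost the mark. Of the genes with lower RNA, 8 of 33 tested lost it (24.2%), and of those with higher RNA 33 of 368 (8.97%). The median H3K4me3 log2 change was -0.89 at genes with lower RNA, -0.60 at genes with higher RNA and -0.14 at genes not called. Read from the other side, RNA was higher at 33 (5.28%) and lower at 8 (1.28%) of 625 genes that lost the mark, so the RNA of most of them was not called. Those 625 genes had a median RNA level (mean log2 RPM) of 1.86, against 4.68 for genes whose mark was tested and not called. Among all genes below a mean log2 RPM of 3, 5.57% were called higher and 0.562% lower. The shares given here were not matched for RNA level. The H3K4me3 counts rest on libraries of unequal depth. H3K4me3 knockout replicate 1 held 3830045 reads, and without it the 3 medians were -0.46, -0.30 and 0.07, and 3 genes with lower and 14 with higher RNA had a called change of the mark. Without control replicate 1 or without control replicate 2, limma called 0 windows lower (702 and 220 at an unadjusted p under 0.05 in either direction).

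The 8 genes called lower in both RNA and H3K4me3 were Trank1, Cnksr2, Fabp5, Jph1, Met, Khdrbs3, Coro2b and Mapk10. Trank1, a gene for a protein of tetratricopeptide and ankyrin repeats, had the lowest RNA log2 change of all tested genes, -1.91 (SE 0.28; limma adjusted p = 0.0257). Its RNA was 1.68 and 3.2 RPM in the knockout libraries, against 8.53 and 8.9 RPM in control. Its H3K4me3 was 5.22 and 8.63 RPM in knockout, against 18.5 and 23.1 RPM in control. Cnksr2, a scaffold gene of Ras signalling on the X chromosome, had 1.73 and 1.8 RPM of RNA in knockout and 4.24 and 4.15 RPM in control, and 5.22 and 10.6 RPM of H3K4me3 in knockout and 16.8 and 16.9 RPM in control. Fabp5, a fatty acid binding protein gene, had 2.34 and 2.12 RPM of RNA in knockout and 4.73 and 3.92 RPM in control (log2 change -0.95).

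Met, the receptor gene for hepatocyte growth factor, had an RNA log2 change of -0.75, the coronin gene Coro2b -0.63 and the JNK3 gene Mapk10 -0.61. At Mapk10 the H3K4me3 value in knockout replicate 1 was a single read (0.261 RPM), against 2.77 RPM in knockout replicate 2 and 5.02 and 5.71 RPM in control. The loss of the mark was still called without knockout replicate 1 at Trank1 (limma adjusted p = 0.00246) and Fabp5 (0.0399) only. The RNA decrease was still called at 3 of the 8 without control replicate 1 (Trank1, Cnksr2 and Jph1) and at 4 without control replicate 2 (those and Fabp5).

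The sequence before the start of 4 of these genes is shown because Kmt2b binds CG dinucleotides. They are the 250 bases upstream of the RefSeq start (GRCm38.p6, which is mm10), 5′ to 3′ on the gene's strand, with every CG in capitals. They are the genes of the 8 whose RefSeq start lies within 30 bases of the deposited one. The median of 32851 RefSeq promoters held 6 CG in these 250 bases.
Trank1, chr9:111311489-111311738, plus strand: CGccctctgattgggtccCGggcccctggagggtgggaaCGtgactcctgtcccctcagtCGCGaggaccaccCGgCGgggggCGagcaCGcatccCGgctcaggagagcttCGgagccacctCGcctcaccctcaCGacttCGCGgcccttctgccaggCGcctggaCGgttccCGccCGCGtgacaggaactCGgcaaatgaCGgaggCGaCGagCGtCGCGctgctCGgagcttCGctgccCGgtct
Cnksr2, chrX:158043281-158043530, minus strand: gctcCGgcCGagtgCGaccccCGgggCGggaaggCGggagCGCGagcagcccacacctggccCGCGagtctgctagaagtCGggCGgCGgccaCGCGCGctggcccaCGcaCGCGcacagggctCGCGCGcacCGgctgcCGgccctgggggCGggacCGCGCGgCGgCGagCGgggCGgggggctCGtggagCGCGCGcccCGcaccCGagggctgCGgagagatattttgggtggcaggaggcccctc
Coro2b, chr9:62537045-62537294, minus strand: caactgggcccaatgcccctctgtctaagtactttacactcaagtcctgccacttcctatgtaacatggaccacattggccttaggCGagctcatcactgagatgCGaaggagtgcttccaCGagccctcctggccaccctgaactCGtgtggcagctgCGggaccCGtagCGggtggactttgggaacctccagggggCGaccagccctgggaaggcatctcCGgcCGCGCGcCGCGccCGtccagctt
Mapk10, chr5:103211335-103211584, minus strand: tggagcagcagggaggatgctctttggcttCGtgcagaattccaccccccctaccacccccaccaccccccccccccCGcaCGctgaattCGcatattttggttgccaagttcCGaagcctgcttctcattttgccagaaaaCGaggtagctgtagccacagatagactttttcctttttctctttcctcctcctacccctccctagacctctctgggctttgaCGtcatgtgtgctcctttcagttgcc
Trank1 held 30 CG, a number that 5.94% of all promoters reached. Cnksr2 held 39 (1.56% of promoters), Coro2b 15 (27.3%) and Mapk10 7 (46.3%). So the first pair are dense in CG and Mapk10 is close to the median promoter. CG reads the same on both strands, and these counts describe the sequence only.

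Genes whose RNA rose while H3K4me3 fell included several regulators. The 8 largest of these 33 RNA increases were at Gata3, Adora1, Cxcr4, Smarca2, Efhb, Gfi1, Arhgap33 and Syt5. Gata3, a transcription factor gene of T cells and trophoblast, had 4.19 and 5.35 RPM of RNA in the knockout libraries, against 1.56 and 1.89 RPM in control (log2 change 1.46, SE 0.20). Its H3K4me3 was 2.09 and 3.98 RPM in knockout and 8.69 and 11.6 RPM in control. Gfi1, a zinc finger repressor gene, had 5.24 and 5.72 RPM of RNA in knockout and 2.29 and 2.57 RPM in control, and 3.66 and 5.97 RPM of H3K4me3 in knockout and 11.6 and 16.1 RPM in control.

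The adenosine receptor gene Adora1 rose by an RNA log2 change of 1.29, Efhb by 1.19 and the synaptotagmin gene Syt5 by 1.16. In all 8 the RNA groups were apart in one direction and the H3K4me3 groups in the other. The 8 RNA log2 changes moved by less than 1.5 times when any one library was left out. The loss of the mark was still called without knockout replicate 1 at Gata3, Adora1 and Gfi1 (limma adjusted p between 0.0253 and 0.0431), and not at the other 5 (between 0.0573 and 0.284).

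**Figure D4:**
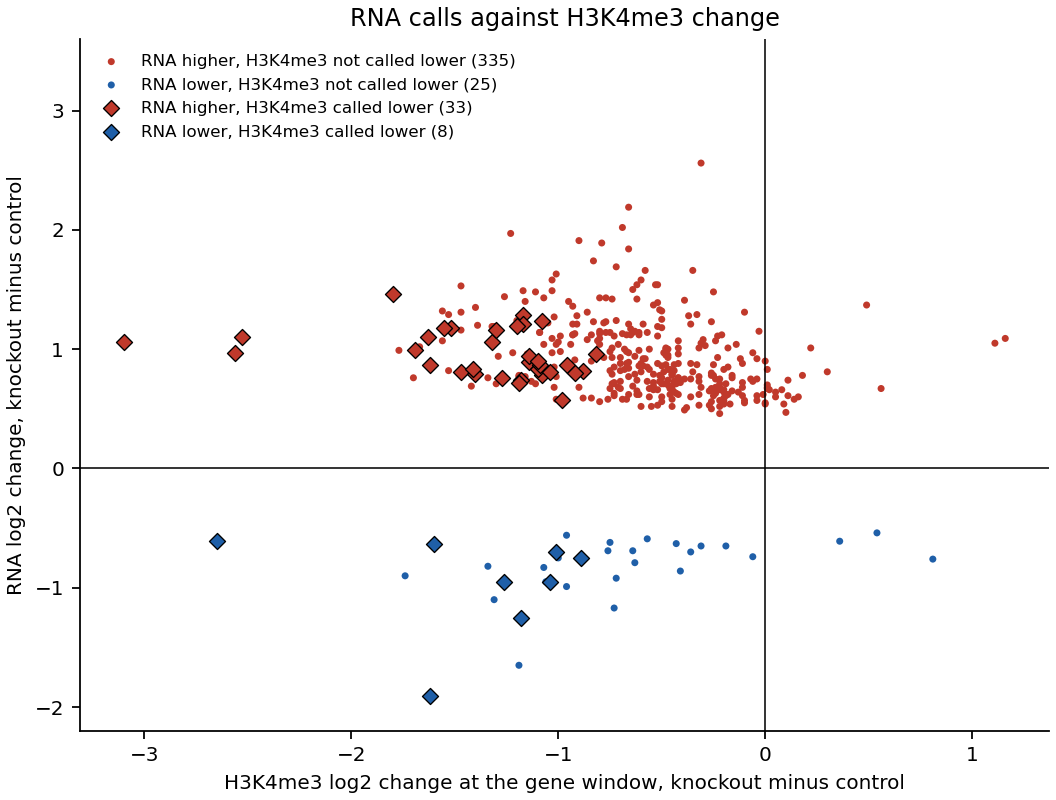
RNA log2 change (vertical axis) against H3K4me3 log2 change at the gene window (horizontal axis), both knockout minus control, for the 401 called genes tested in both assays. Red marks genes with higher RNA and blue those with lower RNA, and outlined diamonds mark the 33 and 8 whose H3K4me3 was called lower. Most points lie left of 0 in both colours.

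Promoter class in control cells was set beside the RNA calls. Among 719 tested genes with a bivalent promoter, 51 were called higher (7.09%) and 4 lower, against 307 of 11144 (2.75%) and 26 for genes with H3K4me3 only. The classes differ in RNA level. Below a mean log2 RPM of 3 the shares called higher were 6.92% for bivalent genes and 6.19% for H3K4me3 only, and at 3 and above 7.61% (14 of 184) and 1.74% (150 of 8609). Genes with neither mark had 62 of 2111 higher (2.94%) and 13 lower. H3K27me3, described without a test, had median knockout minus control differences of 0.80 (log2) at genes with lower RNA, 0.38 at genes with higher RNA and 0.26 at the rest. No level limit was set, and only 4546 of 25965 windows had a mean log2 RPM of 0 or more for this mark. Over those 4546 windows the median log2 change was 0.44. At Jph1 the mark was 1.28 and 0.569 RPM in knockout and 0.616 and 0.275 RPM in control. So these medians include windows with few reads. At Trank1 H3K27me3 was 9.72 and 8.63 RPM in the knockout libraries, against 6.09 and 3.11 RPM in control.

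Decreases were frequent on the X chromosome. Of 44 genes called lower, 14 lie on the X chromosome, where 570 genes were tested (2.46%), against 30 of 13512 autosomal genes (0.222%). This was noticed after the values were seen. They were Esx1, Bex2, Bex3, Cnksr2, the cyclin gene Ccnb3, Morc4, Rnf128, Ct55 (listed as 4930502E18Rik) and the predicted genes Gm5934, Gm5072, Gm4836, Gm10486, Gm10487 and Gm8334. Reads of near-identical copies could be split among the predicted genes, so their values are uncertain. Ccnb3, a cyclin gene of meiosis, had 16.2 and 18.2 RPM in knockout and 25.8 and 24.8 RPM in control (log2 change -0.56, SE 0.11). It was not called without control replicate 1 or 2, nor were Bex3, Morc4 and Rnf128 (limma adjusted p between 0.0688 and 0.39), while Gm8334 lost its call without control replicate 1 (0.111) and Ct55 and Gm5072 without control replicate 2 (0.0616 and 0.08). The X held 22 of 114 decreases with median centring, 5 of 20 with quantile normalization and 4 of 18 where only genes at a mean log2 RPM of 2 or more were tested. With the strand setting of the counts not given, reads of either strand at Xist, the RNA gene of X inactivation, cannot be told apart. How much of its RNA came from feeder cells was not tested, nor was a link to the X-linked decreases. Xist was called higher (log2 change 0.79, SE 0.13, limma adjusted p = 0.032). It had 6.99 and 7.27 RPM in the knockout libraries and 4.11 and 4.15 RPM in control. It was not called without control replicate 1 (adjusted p = 0.101) or control replicate 2 (0.0749).

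A group of increases lay beside Kmt2b itself, again noticed after the values were seen. Within 250 kb downstream of Kmt2b, 6 of 14 tested genes were called higher, and within 250 kb upstream 0 of 7. On chromosome 7 as a whole it was 64 of 1053 (6.08%). Arhgap33, 34.7 kb away, had 17 and 21.1 RPM in the knockout libraries, against 7.88 and 8.88 RPM in control. The nephrin gene Nphs1, 81.6 kb away, had 9.35 and 10.6 RPM in knockout and 5.56 and 5.25 RPM in control (log2 change 0.88). Kirrel2, a nephrin-like gene 111.2 kb away, had 3.67 and 4.2 RPM in knockout and 1.56 and 1.42 RPM in control (log2 change 1.40).

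Aplp1, an amyloid precursor-like gene 123.3 kb away, had 36.5 and 34.9 RPM in knockout and 20.7 and 20.9 RPM in control (log2 change 0.78). Nfkbid, an inhibitor gene of NF-kappa B (0.70), and Gm1082, now named Arhgap33os (1.18), were the other calls. The 4 genes nearest to Kmt2b, U2af1l4 and Zbtb32 (0.9 and 1.0 kb away), Psenen and Lin37, were not called, with log2 changes between -0.06 and -0.02. Without control replicate 1, Aplp1 (limma adjusted p = 0.0519), Nfkbid (0.152) and Gm1082 (0.0661) were not called, and without control replicate 2 Gm1082 was not (0.175). Within 1000 kb, 8 of 37 genes downstream and 1 of 16 upstream were called higher.

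**Figure D5:**
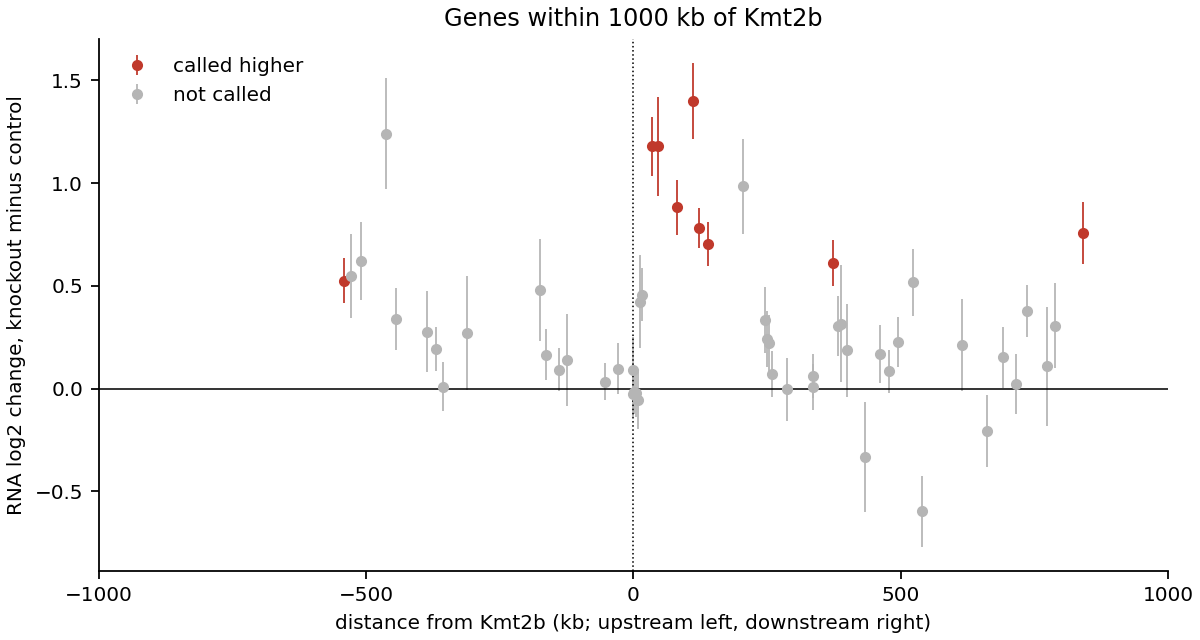
RNA log2 change (knockout minus control, vertical axis) of tested genes within 1000 kb of Kmt2b, by distance from it in kb (upstream left, downstream right). Points are genes, bars are standard errors, and red points were called higher. The increases cluster just downstream of Kmt2b, while the genes next to it lie at 0.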

How the data were processed

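The values are log2 RPM, which the authors deposited per gene for RNA and per gene window for H3K4me3, H3K27me3 and input. Per the labels' protocols, total RNA was treated with DNase and made into libraries with a directional kit. Per the submitters' processing notes, CASAVA 1.8, Trim Galore 0.4.0, Bowtie 1.1.1, TopHat2 2.0.14 and the build mm10 were used; the counter and its strand setting are not given in the sources used here. Deposited values below 100 reads were whole multiples of 1 read per library within 0.1 read, and larger values were not checked. Genes without reads stood at 0.9 of a step, and the steps gave the depths. RPM is not divided by gene length, so the level bins and the level filter sort genes by reads and not by RNA per length.

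Knockout minus control was tested with limma 3.58.1 in R 4.3.3 (eBayes with trend, two-sided, Benjamini-Hochberg over all 14100 genes or 15464 windows whose mean log2 RPM was 0 or more, called at an adjusted p under 0.05). A leave-one-out fit assumed that the lone library varies like the other group. Without a knockout library the spread came from the control pair alone, so RNA calls kept there are no check. The p-values measure the spread between libraries of duplicate cell lines. The fit was also run on simulated counts with the same spread for all genes and both groups. The knockout RNA pair here spread more than the control pair, so that run is no check of these calls. Tables were made with Python 3.11.15, numpy 2.4.6 and pandas 2.3.3.

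Named genes were Kmt2b, the 14 largest called changes in each direction at a mean log2 RPM of 3 or more, up to 4 called members per gene list (with no call, the 2 with the smallest p), and the 8 largest in each combination with lower H3K4me3; others are said to be chosen after their values were seen, or complete a list's calls. A class needed 1.5 (H3K4me3) or 1 (H3K27me3) log2 over input with a pseudocount of 0.5 RPM in both control libraries. Members and the 32 lists were chosen with earlier results of these data known. Of the names, 20001 matched a current RefSeq symbol and 2295 an older one. H3K9me3 and its inputs, 4 columns, were not used. One called member of the embryonic transcription factor list is counted but not reported by name here.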

Additional observations from a re-analysis of the deposited data

How the results depend on the processing

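The direction of every named call held under the alternatives run; its side of the threshold often did not. RNA calls (425 higher, 44 lower) became 266 and 114 with median centring, 50 and 20 with quantile normalization, 299 and 92 with size factors, 3 and 0 with ribosomal scaling, 188 and 18 at a mean log2 RPM of at least 2, and 0 and 0 with no filter (limma, 3561 at an unadjusted p under 0.05). They were 414 and 45 with limma voom and 426 and 50 on log2(RPM + 0.5). Leaving out 1 library gave 227 to 5257 higher and 28 to 3095 lower. H3K4me3 calls (1529 lower, 8 higher) became 682 and 477 with quantile normalization, 796 and 5 at a mean log2 RPM of at least 2, 2643 and 109 with limma voom, 1028 and 56 with no filter, and 1348 and 481 with median centring. Leaving out 1 library gave 0 to 6762 lower and 2 to 124 higher. Of 87 named calls, 53 held without control replicate 1, 60 without control replicate 2, 30 with quantile normalization, 1 with ribosomal scaling and 0 with no filter. Kmt2b RNA turned to -0.15 without knockout replicate 2 and was 0.34 without knockout replicate 1. The causes were not tested. The labels do not say that a number marks a shared cell line, and deviations of same-numbered libraries (r of 0.091 for RNA and 0.15 for H3K4me3, over 2 pairs) do not settle it; with the replicate block RNA calls were 1292 higher and 195 lower, H3K4me3 calls 4010 lower and 70 higher, and all 87 named calls held. Replicates spread more than counting error (chi-square per degree of freedom of 23.7 for the knockout and 2.24 for the control RNA pair). A gene without reads may have had up to 0.078 RPM.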

Other observations

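Some genes outside the lists, chosen after their values were seen, had large or precise changes. Dio3, an imprinted gene for the enzyme that inactivates thyroid hormone, had 3.78 and 3.77 RPM in the knockout libraries, against 0.91 and 0.947 RPM in control, a log2 change of 2.02. The connexin 26 gene Gjb2 had 11.5 and 10.7 RPM in knockout and 2.83 and 3.16 RPM in control (1.89), and the growth factor binding protein gene Igfbp5 had 12.8 and 14 RPM in knockout and 4.5 and 3.81 RPM in control (1.69). Among decreases, the fatty acid binding protein gene Fabp9 had 0.765 and 1.1 RPM in knockout and 2.57 and 3.22 RPM in control (-1.65), and the DNA replication licensing inhibitor gene Gmnn had 38.9 and 38.6 RPM in knockout and 59.4 and 59.2 RPM in control (-0.61). The syndecan gene Sdc4, the called increase with the most reads, had 1089 and 1090 RPM in knockout and 789.3 and 783.9 RPM in control (0.47). All 6 were called by limma, with adjusted p between 0.0141 and 0.0453. Gmnn and Sdc4 were not called without control replicate 1 (limma adjusted p = 0.244 and 0.607) or control replicate 2 (0.194 and 0.568).

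The knockout libraries differed from each other at some genes that no call includes. Of the 105 genes at least 2-fold higher in knockout replicate 2 than in replicate 1, 26 lie on chromosome 2 (24.8%, against 7.95% of all tested genes) and 10 are named Zfp, for zinc finger proteins (9.52%, against 2.35%). Of the 30 genes at least 2-fold higher in replicate 1, 7 lie on the X chromosome, which holds 570 of the 14100 tested genes. Among these 7 were Gata1, with 3.26 and 1.37 RPM in knockout and 1.51 and 1.67 RPM in control, and the predicted gene Gm10058. The chromosome 2 genes with the largest differences, among them Gm4723 and Gm8898, were predicted genes too. Reads of near-identical copies could be split among predicted genes, so these counts may not be of independent genes. Zfp445 had 3.45 and 12.2 RPM in the knockout libraries, against 6.21 and 7.44 RPM in control. Gm4723 had 1.09 and 4.67 RPM in knockout and 2.34 and 2.34 RPM in control. At Zfp445 and Gm4723 the control values lay between the knockout values.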
